A study of Mus musculus with 2 samples.

Results

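*Cux2*, *Pou3f1*, *Pou3f2* and *Rorb* are 4 of the 500 genes on a MERFISH panel that was read in 1 coronal head section of a control mouse embryo and 1 of a KO embryo at E16.5. They were taken by name from the cell-by-gene tables as the regulators of cortical layering on the panel, a rule that uses no measured value, although earlier results of these data were known. Both embryos carried Sst-Cre and the tdTomato reporter, so that Cre was made under the *Sst* promoter. The KO embryo (Sst-Cre/tdTomato/Dnmt1 loxP2) carried *Dnmt1* alleles flanked by loxP sites in addition, and the control (Sst-Cre/tdTomato) did not. *Dnmt1* itself is not a gene of the panel, so the labels were not checked against it. Cre recombines such alleles only where *Sst* has been active, mainly in somatostatin interneurons, whereas the transcripts below were counted in all cells of 10 µm sections.

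All 4 genes encode transcription factors. *Cux2* codes for a cut-like homeodomain protein that is known from upper-layer projection neurons and the dividing cells that give rise to them, and also from interneurons that reach the cortex from the medial ganglionic eminence (MGE). *Pou3f1* (Oct6) and *Pou3f2* (Brn2) code for closely related POU-domain proteins. *Pou3f2* is known from cortical progenitors and from upper-layer neurons that are still migrating. *Rorb* codes for a retinoid-related orphan nuclear receptor that is best known from layer 4, the layer that receives thalamic input. At E16.5 the embryonic cortex (pallium) still forms inside-out. Progenitors line the ventricle, newborn upper-layer neurons pass through the intermediate zone, and the deep-layer neurons already lie in the cortical plate beneath the pia.

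A MERFISH level depends on how selectively probes tell transcripts apart, and the members were therefore compared as sequences. The GENCODE annotation of GRCm39 places *Cux2* at chr5:121994429-122188416 on the minus strand with 23 exons, and *Rorb* at chr19:18907969-19088585 on the minus strand with 10 exons. *Pou3f1* at chr4:124550600-124554448 (plus strand) and *Pou3f2* at chr4:22482780-22488366 (minus strand) each consist of 1 exon. *Pou3f1* and *Pou3f2* shared 9 windows of 30 bases, all overlapping within their longest common run, which was 38 bases in the coding sequence. The other 5 pairs shared no run of 30 bases. Of 1318 windows of 30 bases in the coding sequence of *Pou3f1*, 98 differed from *Pou3f2* at 3 bases or fewer. The lines below show 1 window that is identical in both genes and the window that follows it, in which capitals mark the bases that differ, 5 of 30. Each is written 5′ to 3′ on the coding strand.
Pou3f1, chr4:124552382-124552411: gaggccctgcagctgagcttcaagaacatg
Pou3f2, chr4:22487163-22487192: gaggccctgcagctgagcttcaagaacatg
Pou3f1, chr4:124552412-124552441: tgcaagctCaagccGCtgCtCaacaagtgg
Pou3f2, chr4:22487133-22487162: tgcaagctGaagccTTtgTtGaacaagtgg
The probe sequences of the panel were not used here, so whether a probe lies in such a window was not tested.

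The control section was the shallower of the 2. Its pallial cells had a median of 17 panel transcripts against 96 in the KO section, over pallial areas of 4.00 and 3.51 mm2. Levels are therefore given as counts per 1e+06 panel transcripts (CPM), summed over cells with at least 20 transcripts (15349 of 34292 cells in the control pallium, 30705 of 32056 cells in the KO pallium). Each has an exact Poisson 95% interval, which covers counting error only. The 2 sides of a section (left and right of the midline) are given as a measure of spread, but they come from 1 animal. With 1 section per group no test between genotypes was possible, and run, section plane and genotype cannot be told apart. A control panel of 50 blank barcodes, which match no transcript, had a median of 81.0 CPM in the control and 86.3 CPM in the KO pallium. Within a region, fewer expressing cells and fewer transcripts per cell cannot be told apart from CPM alone.

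The 4 genes occupied different parts of the brain. *Cux2* and *Rorb* had their highest regional level in the pallium. *Pou3f2* was highest in the subpallial germinal zone (brain outside the pallium and striatum that is rich in germinal genes), closely followed by the pallium as a whole. The inner depth bins of the pallial sector described below exceeded both of these regional levels. *Pou3f1* differed little between brain regions. The same held in both sections, except that the regional order of *Pou3f1* differed between them.

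*Cux2* reached 8554 CPM (8319 to 8794; sides 6838 and 9298) in the control pallium and 10255 CPM (10153 to 10358; sides 9980 and 10562) in the KO pallium. In the striatum it was measured at 2559 CPM in the control and 2906 CPM in the KO, which made the pallial level 3.34-fold (3.02 to 3.70) and 3.53-fold (3.41 to 3.65) the striatal one. The germinal zone of the subpallium resembled the striatum, with 2596 and 3092 CPM, and the remaining subpallium lay between striatum and pallium with 3856 and 4501 CPM. *Cux2* was thus enriched in the pallium but present well above the highest blank barcode of every brain region, which ranged from 267 to 451 CPM.

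*Rorb* was measured at 2812 CPM (2678 to 2951; sides 2687 and 2866) in the control pallium and at 1849 CPM (1806 to 1893; sides 1671 and 2049) in the KO pallium. It was lowest in the striatum, at 447 CPM (373 to 531) in the control and 337 CPM (313 to 362) in the KO. Those values were not far above the highest blank barcodes there, 284 and 287 CPM. The pallial level was 6.30-fold (5.05 to 7.91) the striatal one in the control and 5.49-fold (4.98 to 6.05) in the KO. The subpallial germinal zone held more, with 1099 and 1074 CPM.

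*Pou3f2* was among the most abundant genes of the panel in the pallium, ranking 11th of 500 in the control and 7th in the KO. Its pallial level was 20143 CPM (19782 to 20510; sides 19432 and 21782) in the control and 24832 CPM (24673 to 24992; sides 24200 and 25538) in the KO. The subpallial germinal zone reached 25229 and 28453 CPM. In the adjoining striatum the gene fell to 4297 and 4536 CPM, so that the pallium exceeded the striatum 4.69-fold (4.35 to 5.05) and 5.47-fold (5.33 to 5.62).

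*Pou3f1*, the paralog, was measured at 2396 CPM (2273 to 2525) in the control pallium and at 2672 CPM (2620 to 2725) in the KO pallium. The striatal levels were 1897 CPM in the control and 2677 CPM in the KO, and those of the remaining subpallium were 2873 and 3132 CPM. The ratio of pallium to striatum was 1.26 (1.10 to 1.45) in the control, while it was 0.998 (0.954 to 1.04) in the KO. Within these regions the gene had narrow maxima, which follow below.

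Outside the brain the members separated into pairs. In head tissue at least 200 µm from the brain, *Rorb* was still measured at 854 CPM in the control and 961 CPM in the KO, and *Cux2* at 813 and 957 CPM. These values lay above the highest blank barcode of that tissue (384 and 365 CPM). *Pou3f1* with 120 and 237 CPM and *Pou3f2* with 164 and 188 CPM stayed below it, and no level was read from them there.

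**Figure D1:**
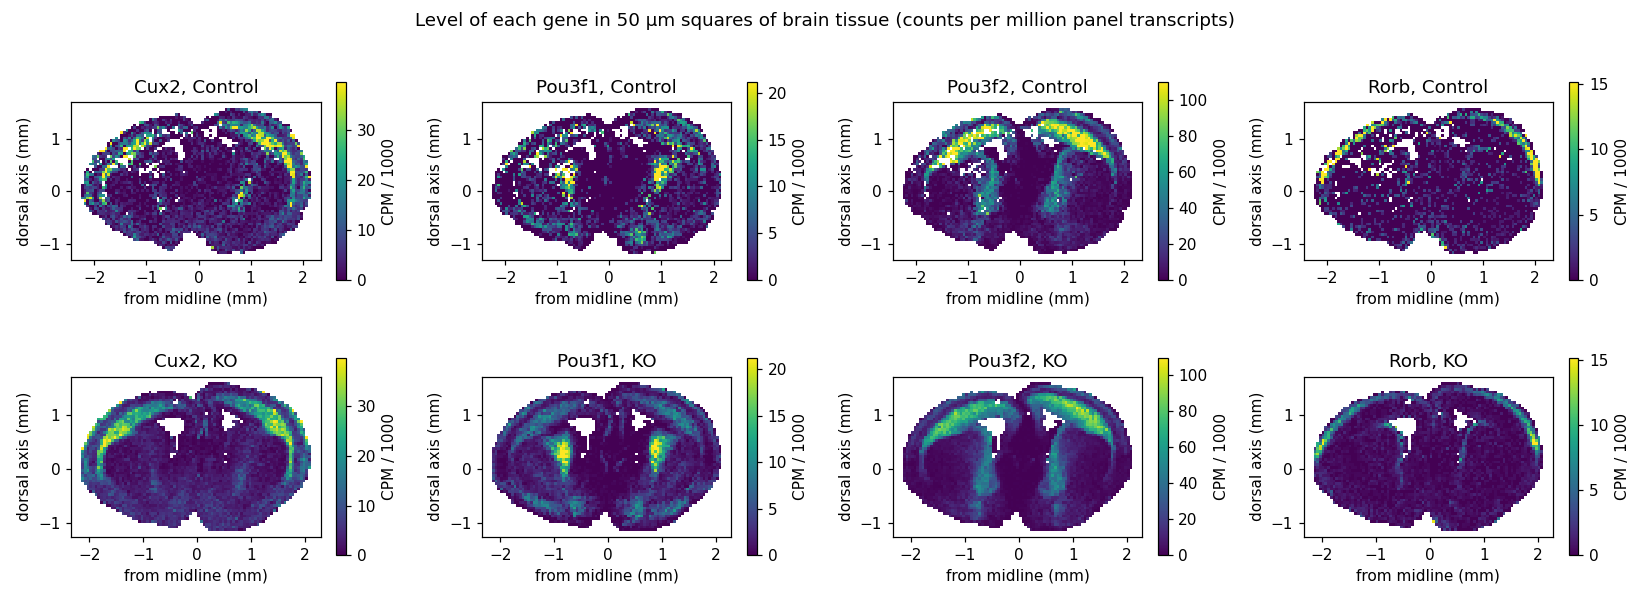
Level of each gene in 50 µm squares of brain tissue in the control (upper row) and KO section (lower row), in CPM divided by 1000. Axes give the distance from the midline and along the dorsal axis in mm, and each gene has 1 colour scale for both sections. *Rorb* forms an outer pallial band, *Pou3f2* lines the ventricles, *Cux2* fills the inner pallium and *Pou3f1* marks a narrow strip beside the striatal germinal zone.

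Across the depth of a dorsolateral sector of the pallium, *Rorb* marked an outer band, *Pou3f2* and *Cux2* were highest toward the inner border, and *Pou3f1* had a maximum at each end. Depth was cut into 10 equal bins from the pia (bin 1) to the inner border of the pallium (bin 10). The sector, in both hemispheres, held 6081 control and 12500 KO cells. The inner border was the nearest other part of the brain, which can be the ventricle, the striatum or other subpallium. The median thickness of the sector was 457 and 484 µm on the control sides and 443 and 494 µm on the KO sides. In the pooled values the outer profile of the control lay about 1 bin deeper than that of the KO, also for the deep-layer regulator *Fezf2*, which peaked in bin 3 in the control and in bin 2 in the KO. For *Fezf2* and *Rorb* this offset came from side 2 of the control, since side 1 peaked in bin 2 as the KO sides did, and *Rprm*, another deep-layer gene, peaked in bin 3 on every side. Peaks were therefore compared rather than single bins. The outline depended on the sector. Over the whole pallium, a setting chosen after seeing the data, *Pou3f2* peaked in bin 6 in both sections and *Pou3f1* in bin 6 in the KO. The lowest bin of control *Cux2* and *Pou3f1* was bin 10.

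*Rorb* rose from 3013 CPM in bin 1 of the control to 10393 CPM in bin 2 and 11360 CPM (10268 to 12538) in bin 3, then fell to 5965 CPM in bin 4 and 1643 CPM in bin 5. In the KO it was highest in bin 2 with 7027 CPM (6701 to 7364), followed by bin 3 with 6102 CPM and bin 4 with 3473 CPM. From bin 6 inward it ranged from 459 to 1174 CPM in the control and from 377 to 655 CPM in the KO. Bins 2 and 3 held 59.6% and 55.3% of the summed level of the profile. Taken over bins 2 to 3 against bins 7 to 10, *Rorb* was higher by 3.62 on the log2 scale (3.08 to 4.18) for the control and by 3.82 (3.57 to 4.07) for the KO.

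Both ends of the pallial wall carried *Cux2*, and the inner end carried most. In the control its level was 13130 CPM in bin 1, fell to 7478 CPM in bin 3, and climbed to 32004 CPM (28396 to 35944) in bin 9. In the KO the corresponding values were 14253 CPM in bin 1, 8421 CPM in bin 3 and 26989 CPM (26087 to 27914) in bin 9. The peak in bins 9 to 10 was present on each side, at 21113 and 35990 CPM in the control and 28966 and 25326 CPM in the KO, and the control sides differed more from each other than the KO sides. Bins 7 to 10 held 59.0% of the profile in the control and 56.4% in the KO. The outer maximum held many interneuron-marked cells (defined below). Of the *Cux2* transcripts of bin 1, 34.4% lay in 80 such cells of the control and 22.0% in 154 of the KO. Without interneuron- and GABAergic-marked cells the control had 9714 CPM (8516 to 11032) in bin 1 and 8222 CPM (7566 to 8921) in bins 2 to 3, and the KO 12277 and 8272 CPM.

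*Pou3f2* showed the steepest climb toward the inner border. The control started with 7677 CPM in bin 1, had a first, small maximum of 21630 CPM in bin 2, dropped to 9538 CPM in bin 4, and reached 56485 CPM in bin 9. The KO started with 17584 CPM in bin 1, dropped to 10981 CPM in bin 3, and reached 54527 CPM in bin 8. The outer maximum lay in bin 2 on both control sides (17449 and 22986 CPM) and in bin 1 on both KO sides (17722 and 17430 CPM). For *Fezf2* only side 2 of the control was offset. Bin 1 held 85 progenitor-marked cells with 502 CPM in the control and 13 with 2192 CPM in the KO, and their part in this was not tested. Bins 7 to 10 held 65.0% of the control profile and 61.0% of the KO profile.

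*Pou3f1* followed the same outline at a lower level, with maxima at the pial and the inner end of nearly equal height. In the control the maxima were 5830 CPM in bin 2 and 5615 CPM in bin 9, on either side of a minimum of 1460 CPM in bin 4. In the KO they were 4958 CPM in bin 1 and 5125 CPM in bin 8, around a minimum of 1800 CPM in bin 3. Which control maximum was the higher depended on the setting, as it was the inner one, in bin 9, without a minimum of transcripts, with a minimum of 50 and with all decoded molecules, and with a minimum of 50 the lowest control bin was bin 7. The outer maximum was present on both sides of each section, with 4416 and 6288 CPM in bin 2 of the control and 5201 and 4687 CPM in bin 1 of the KO. The log2 ratio of bins 2 to 3 over bins 7 to 10 was 0.11 (-0.25 to 0.47) in the control but -0.86 (-1.01 to -0.72) in the KO. The KO maximum lay in bin 1, outside bins 2 to 3, and the part of this in the ratio was not tested.

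Among 21 laminar genes, the 4 members and 17 others of a fixed list that were on the panel, the order by mean depth was similar in both sections. *Reln*, the secreted marker of Cajal-Retzius cells beneath the pia, was outermost, and *Rorb* was next in both sections. *Pou3f1* was 14th in the control and 15th in the KO, *Cux2* 16th and 17th, and *Pou3f2* 18th in both. Only 3 of the listed genes lay further in than *Pou3f2* in either section, the intermediate progenitor gene *Eomes*, the netrin receptor gene *Unc5d* and the somatostatin receptor gene *Sstr2*. The deep-layer genes *Fezf2*, *Ntsr1* and *Bcl11b* lay between *Rorb* and *Pou3f1* in both sections, while *Tbr1*, another, was 15th in the control, just past *Pou3f1*, and 13th in the KO.

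**Figure D2:**
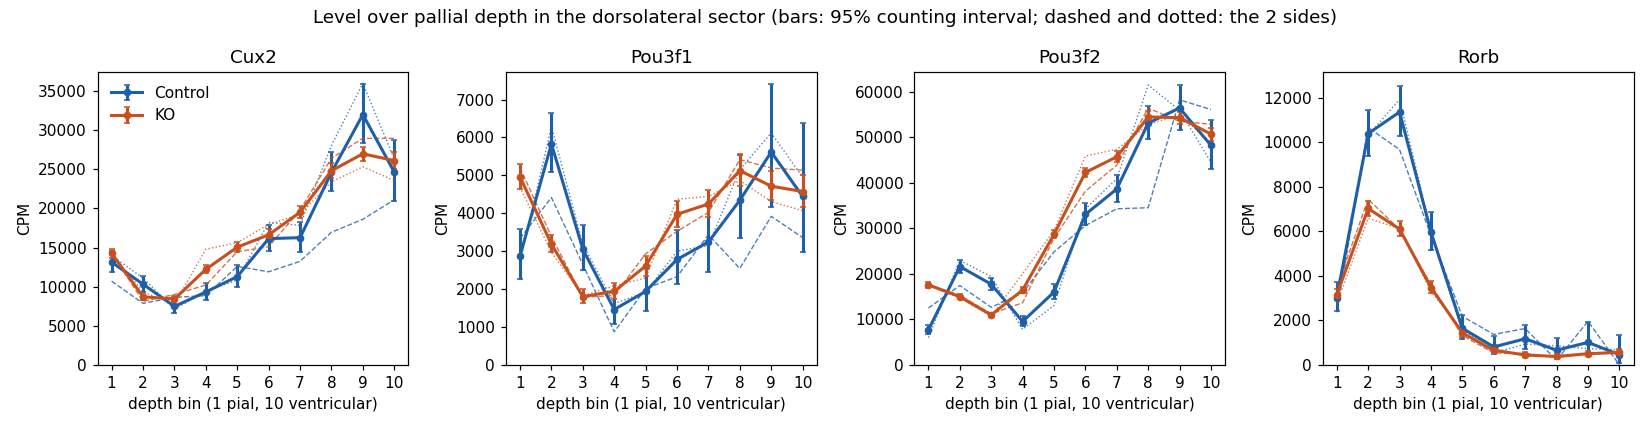
Level of each gene (CPM) in 10 depth bins from pia (1) to the inner border of the pallium (10) in the dorsolateral sector of the control (blue) and KO (orange) section. The axis label calls bin 10 ventricular, but the inner border can also be the striatum or other subpallium. Points and solid lines pool both sides with 95% counting intervals, and dashed and dotted lines are the 2 sides. *Rorb* peaks in bins 2 to 3, *Cux2* and *Pou3f2* peak in bins 8 to 9, and *Pou3f1* has an outer and an inner maximum.

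The sector was next divided into 4 arcs from its dorsal (80 degrees) to its lateral end (180 degrees). What adjoins the inner border may change along the arcs, and the part of this in the series below was not tested. *Pou3f2* declined laterally in each depth zone and *Pou3f1* in the middle and inner ones, *Cux2* was lowest in the lateral arcs of those 2 zones but not of the outer one, and *Rorb* in the outer zone peaked in the third arc in the pooled values. In bins 7 to 10, *Pou3f2* fell from 101294 CPM in the most dorsal arc through 62753 and 22026 to 7445 CPM in the most lateral arc of the control. In the KO the series ran 71833, 64896, 27053 and 8857 CPM. From the first to the last arc this was a difference of 3.77 on the log2 scale (3.41 to 4.13) for the control and of 3.02 (2.89 to 3.15) for the KO, and each of the 4 sides declined at every step. The outer zone (bins 1 to 3) declined as well, from 21371 to 3138 CPM in the control and from 17934 to 5174 CPM in the KO. In between, in bins 4 to 6, the level went from 32132 to 2958 CPM in the control and from 61608 to 2217 CPM in the KO.

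*Pou3f1* behaved likewise in bins 7 to 10, with 8144, 5837, 2606 and 573 CPM in the control and 6258, 6053, 2712 and 955 CPM in the KO, and in bins 4 to 6 it went from 3454 to 406 CPM and from 5933 to 235 CPM. In the outer zone it was highest in the second arc, with a series of 4395, 4915, 3578 and 2553 CPM for the control and 3143, 4062, 3667 and 1873 CPM for the KO. *Cux2* had its inner maximum in the second arc, with 35025 CPM in the control and 31878 CPM in the KO, and fell to 9592 and 13364 CPM in the most lateral arc. In bins 4 to 6 its series was 15048, 11203, 9201 and 8468 CPM for the control and 23466, 13970, 7430 and 7436 CPM for the KO. In the outer zone its order was the opposite. There it rose from 7462 CPM in the most dorsal arc to 13936 CPM in the third arc of the control, and from 6574 to 14466 CPM in the KO. This rise was present on all 4 sides, whose most dorsal values were 6375 to 7704 CPM and whose values in the third arc were 11529 to 14968 CPM.

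In the outer zone *Rorb* rose from 5361 CPM in the most dorsal arc to 16824 CPM (14870 to 18963) in the third arc of the control, and from 4532 to 9173 CPM in the KO. It then fell to 8032 and 4695 CPM in the last arc. The rise was not shared by all sides. Side 2 of the control went from 4249 to 19696 CPM, while side 1, the one with fewer cells, gave 8914 and 7137 CPM. Both KO sides rose, from 4803 to 9137 CPM and from 4204 to 9204 CPM.

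**Figure D3:**
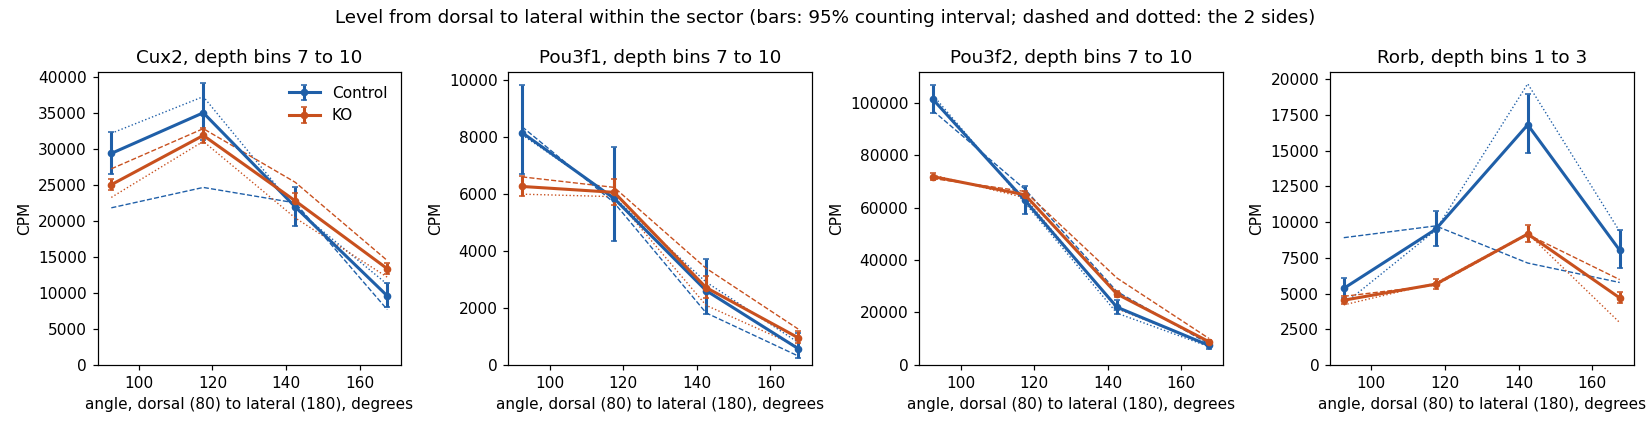
Level (CPM) in 4 arcs from the dorsal to the lateral end of the sector (angle in degrees), for *Cux2*, *Pou3f1* and *Pou3f2* in depth bins 7 to 10 and for *Rorb* in bins 1 to 3. Solid lines pool both sides of the control (blue) and KO (orange) section with 95% counting intervals, dashed and dotted lines are the sides. *Pou3f2* and *Pou3f1* decline from arc to arc, and *Rorb* peaks in the third arc in the pooled values but not on side 1 of the control.

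In the subpallium the most local pattern belonged to *Pou3f1*. Cells were ordered by their distance from the border of the subpallial germinal zone toward the striatum. Not all of them lay in the striatum as set here. Within 200 µm outside the border the track held 2029 control and 8158 KO cells, whereas the striatum held 968 and 5066 at that distance. *Pou3f1* was at 8273 and 7504 CPM in these track cells and at 5292 and 5937 CPM in the striatal cells. *Pou3f1* rose sharply in the first 100 µm outside the germinal zone and had fallen back beyond 200 µm, with 2549 CPM in the control and 2478 CPM in the KO from 200 to 300 µm. *Pou3f2* fell steadily across the same border, *Cux2* had a smaller rise, and *Rorb* stayed low throughout.

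In the control, *Pou3f1* was measured at 2005 CPM in the last 100 µm of the germinal zone, at 11343 CPM (10044 to 12763) in the first 100 µm outside it, at 6109 CPM in the next 100 µm and at 1975 CPM from 300 to 400 µm. In the KO the same stretch gave 3831, 9599 (9289 to 9917), 5342 and 1969 CPM. The first 100 µm were the maximum on each side, with 8039 and 13535 CPM in the control and 9967 and 9173 CPM in the KO. Over the level at 300 to 400 µm this was an excess of 2.52 on the log2 scale (2.07 to 2.98) for the control and of 2.28 (2.14 to 2.43) for the KO. The levels at the border exceeded every pallial depth bin of the same gene.

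*Pou3f2* decreased along this track from 37933 CPM inside the germinal zone to 18083 CPM in the first 100 µm outside it and to 3633 CPM at 500 to 600 µm in the control. The KO values were 39133, 16322 and 3081 CPM. *Cux2* had 6740 CPM in the first 100 µm of the control and 5381 CPM in the KO, against 2268 and 2324 CPM at 300 to 400 µm. *Rorb* in the first 100 µm amounted to 699 CPM in the control and 467 CPM in the KO.

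The strip of high *Pou3f1* lay mainly at the upper part of the border. Cells in its upper part, within 200 µm of the germinal zone, had 10130 CPM in the control and 9801 CPM in the KO, and those in its lower part 4089 and 3886 CPM. *Sp9*, a zinc finger gene of striatal and olfactory precursors, was high in the same 100 µm with 17138 and 12189 CPM. *Drd1*, the dopamine receptor gene of maturing direct pathway neurons, was at 452 and 557 CPM there and rose to 4857 and 5814 CPM at 500 to 600 µm. *Drd1* was among the genes that delimited the striatum and *Sp9* among those that delimited the subpallium, so neither is an independent check of the border. Within 200 µm of the border *Pou3f1* was at 9927 and 8802 CPM in unassigned cells and at 9357 CPM (6358 to 13282) and 11163 CPM (10472 to 11888) in cells with GABAergic markers. The 72 progenitor-marked cells of the control had 9657 CPM (5723 to 15262) and those of the KO 4417 CPM, and the control intervals of these 3 classes overlapped. Cells with markers of indirect pathway neurons had 8737 and 7795 CPM, cells with markers of direct pathway neurons 5154 and 6885 CPM, and MGE interneuron-marked cells 5898 and 4781 CPM. *Sp9* is itself on the indirect pathway list, so cells near the border can enter that class through it. How many did so was not tested. Each of the values of unassigned and neuronal classes lay above that of the same class at 300 to 600 µm, where they ranged from 1302 to 2361 CPM in the control and from 1794 to 2991 CPM in the KO. In the KO, 175 endothelial-marked cells near the border had 4717 CPM, against 1004 CPM in 141 such cells at 300 to 600 µm. The part that transcripts of neighbouring cells have in these class values was not tested.

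**Figure D4:**
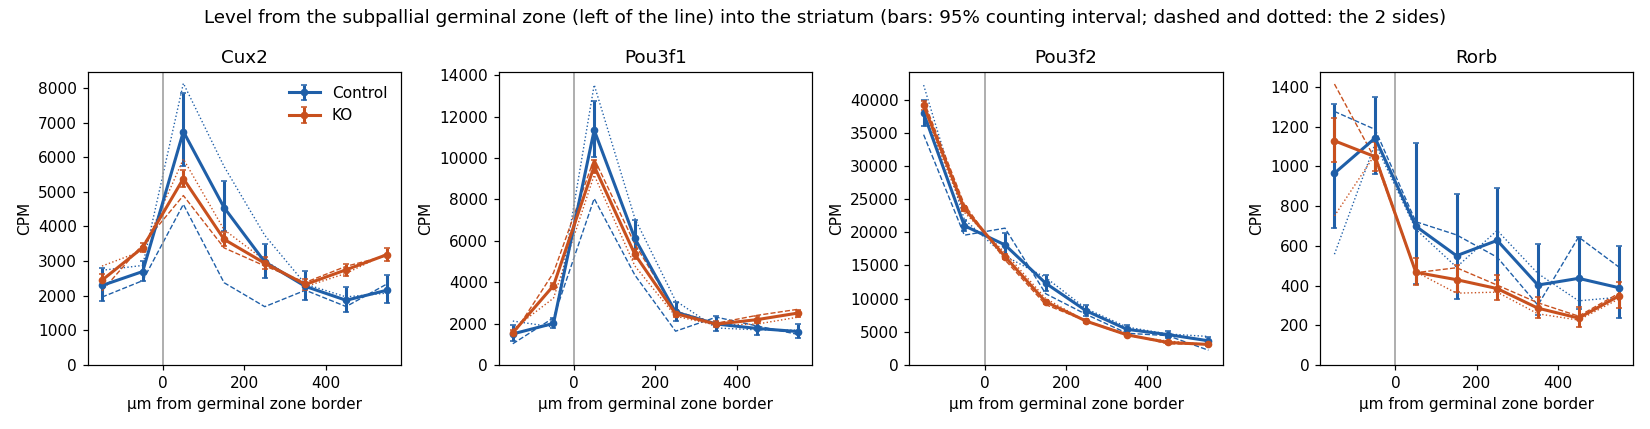
Level (CPM) of each gene in steps of 100 µm from 200 µm inside the subpallial germinal zone (left of the grey line) to 600 µm outside it, in the control (blue) and KO (orange) section, with 95% counting intervals and the 2 sides as dashed and dotted lines. *Pou3f1* peaks in the first 100 µm outside the border, at 11343 CPM in the control and 9599 CPM in the KO, while *Pou3f2* falls across it.

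Cells of the pallium were assigned to classes by summed transcripts of marker lists that held none of the 4 genes. Each class is called marked for its list, since neighbouring cells overlap in a section and no doublets were removed. *Cux2* was highest in MGE interneuron-marked cells, *Rorb* in cortical glutamatergic-marked cells, and *Pou3f1* and *Pou3f2* in cells that passed for no class, the unassigned cells, closely followed for *Pou3f2* by *Eomes*-positive cells of the KO. Unassigned cells made up 40.6% of control and 35.4% of KO pallial cells, and they held 48.9% and 50.1% of the *Cux2* transcripts.

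*Cux2* was measured at 26131 CPM (23817 to 28609) in 476 MGE interneuron-marked cells of the control pallium and at 30358 CPM (29249 to 31497) in 906 of the KO. Striatal cells marked by the same list had less, with 6662 CPM in the control and 9953 CPM in the KO. The marker list of this class holds *Lhx6*, *Sst*, *Erbb4* and other interneuron genes, so the class includes the *Sst* neurons in which Cre acts. The list of cortical glutamatergic-marked cells was *Tbr1*, *Fezf2*, *Nr4a2*, *Slc17a7*, *Mc4r*, *Ntsr1* and *Unc5d*, which includes the deep-layer genes named above. Whether newborn upper-layer neurons lie among the unassigned cells instead was not tested. In cortical glutamatergic-marked cells *Cux2* had 6688 CPM (6360 to 7029) and 6626 CPM (6493 to 6762). The difference between these classes was 1.97 on the log2 scale (1.76 to 2.17) for the control and 2.20 (2.11 to 2.28) for the KO. Cells with GABAergic markers that passed for no interneuron class had 13793 and 15851 CPM. Since interneuron-marked cells were only 3.10% and 2.95% of the pallial cells, they held 9.33% and 7.35% of its *Cux2* transcripts.

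The excess in interneuron-marked cells was present at each depth and was smallest toward the inner border in both sections. In bins 2 to 3 *Cux2* was at 31124 CPM in interneuron-marked cells against 6883 CPM in glutamatergic-marked cells of the control, and at 30325 against 6229 CPM in the KO. In bins 7 to 10 the values were 30663 against 14082 CPM in the control and 37269 against 17508 CPM in the KO. Interneuron-marked cells thus had a similar *Cux2* level from pia to inner border (30663 to 38310 CPM in the control, 30325 to 37269 CPM in the KO over 4 depth zones). Glutamatergic-marked cells were lowest in bins 2 to 6 of the control, with 15196 CPM in bin 1, while those of the KO had 6222 CPM in bin 1, about as much as in bins 2 to 3. Unassigned cells of bins 7 to 10 reached 31848 CPM in the control and 29862 CPM in the KO.

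*Rorb* was measured at 4414 CPM (4149 to 4693) in 5883 glutamatergic-marked cells of the control and at 3157 CPM (3065 to 3251) in 11169 of the KO, and these cells held 62.2% and 64.4% of its pallial transcripts. Interneuron-marked cells had 1284 and 1127 CPM, and microglia-marked cells, which are not known to use the gene, 707 and 583 CPM. Within glutamatergic-marked cells the level again followed depth. It was 11580 CPM in bins 2 to 3 and 1013 CPM in bins 7 to 10 of the control, and 6953 and 490 CPM in the KO. Glutamatergic-marked cells held 67.2% of the *Rorb* transcripts of bins 2 to 3 in the control and 71.8% in the KO, and they were also the most numerous class there, with 1178 control and 2500 KO cells against 639 and 959 unassigned ones. On the CPM scale unassigned cells of these bins had about the same level, 11703 CPM in the control and 6300 CPM in the KO.

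*Pou3f2* was measured at 35736 CPM in unassigned cells of the control and 42402 CPM in those of the KO, and at 41212 CPM (40350 to 42088) in 1270 *Eomes*-positive cells of the KO pallium. Only 7 control cells met the criterion of 3 *Eomes* transcripts, too few for a comparison. Progenitor-marked cells had 14913 CPM in the control and 26281 CPM in the KO, and glutamatergic-marked cells 12255 and 11857 CPM. The progenitor-marked cells of the sector lay at different depths in the 2 sections. They are a small part of the class (1653 control and 3016 KO cells in the whole pallium), and the depths of the rest were not compared. In the sector 43 control and 170 KO cells were in bins 7 to 10, and 85 and 13 in bin 1. They had 50042 CPM (38095 to 64551) and 53160 CPM (49562 to 56951) in bins 7 to 10, and 502 and 2192 CPM in bin 1. Of the *Pou3f2* transcripts of bins 7 to 10, progenitor-marked cells held 2.55% and 3.41%, and unassigned cells 73.8% and 65.1%. Among classes of at least 100 cells in both sections the lowest levels were in Cajal-Retzius-marked cells, with 407 CPM (164 to 839) in the control and 1416 CPM (1222 to 1632) in the KO. *Pou3f1* was also low there (407 and 667 CPM) and in progenitor-marked cells (503 and 781 CPM). It had 2179 and 1858 CPM in glutamatergic-marked cells, 2401 and 1599 CPM in interneuron-marked cells, and 3624 and 4736 CPM in unassigned cells.

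**Figure D5:**
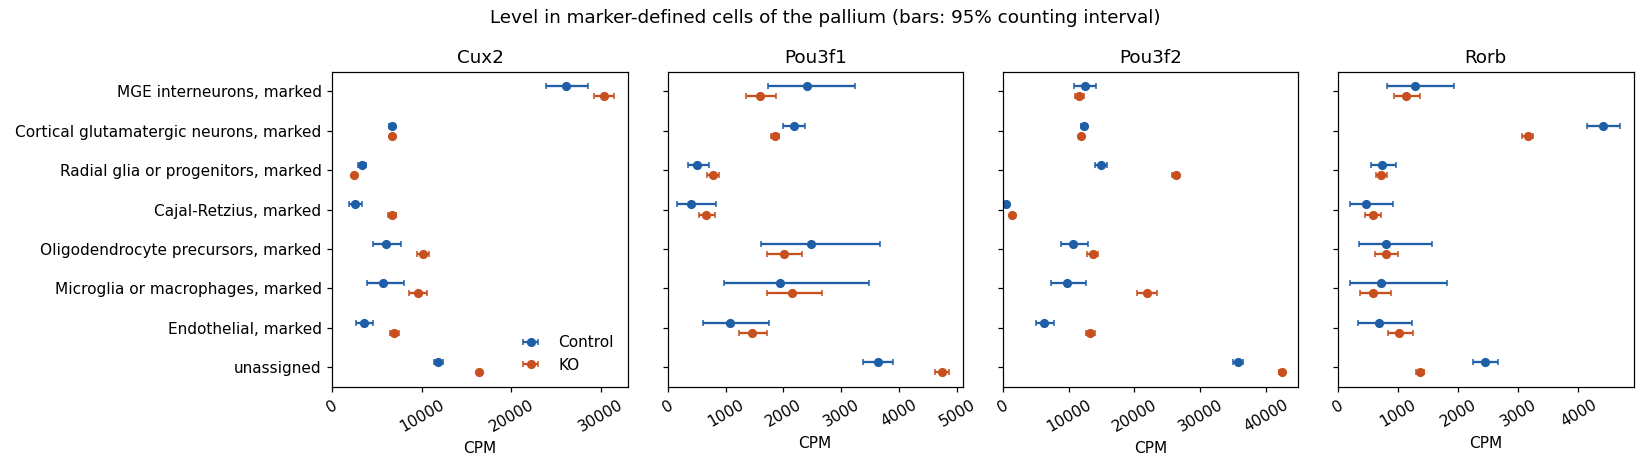
Level (CPM) of each gene in marker-defined cells of the pallium in the control (blue) and KO (orange) section, with 95% counting intervals. *Cux2* is highest in MGE interneuron-marked cells (26131 and 30358 CPM) and *Rorb* in cortical glutamatergic-marked cells (4414 and 3157 CPM), and microglia-marked cells show the level found in cells not known to use these genes.

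To compare shares of positive cells at equal depth, each pallial cell was thinned to 25 transcripts, which kept 11574 control and 30156 KO cells and left out 3775 and 549 shallower ones. Cells kept the class assigned before thinning, so class assignment was not at equal depth, and its part in the shares was not tested. A *Cux2* transcript was then present in 42.2% (37.2 to 47.4) of interneuron-marked control cells and in 51.2% (47.8 to 54.5) of those of the KO, with exact binomial intervals. The unthinned shares were 54.8% and 83.2%. In microglia-marked cells the thinned share was 9.35% (4.57 to 16.52) and 17.9% (13.6 to 22.8), and the medians of transcripts per cell before thinning were 33 and 83 in interneuron-marked cells and 38 and 114 in microglia-marked cells. *Rorb* was present in 9.35% (8.54 to 10.2) of glutamatergic-marked cells of the control and 7.38% (6.90 to 7.88) of the KO, against 1.87% (0.23 to 6.59) and 1.72% (0.56 to 3.96) of microglia-marked cells. Both genes thus stood above the microglia-marked level in these classes.

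The same could not be said of the POU genes in glutamatergic-marked cells. *Pou3f2* was found in 22.1% and 24.6% of these after thinning, and in 15.9% (9.54 to 24.2) and 29.9% (24.7 to 35.5) of microglia-marked cells. *Pou3f1* was found in 5.33% and 4.98% of glutamatergic-marked cells, and in 1.87% and 6.19% of microglia-marked cells. *Cux2* in glutamatergic-marked cells (14.5% and 13.3%) likewise lay within or below the microglia-marked interval. None of these shares can be called expression by this comparison. They pool all depths. In bins 7 to 10 glutamatergic-marked cells had 14082 and 17508 CPM of *Cux2*, against 5654 and 9535 CPM in microglia-marked cells of the whole pallium. The *Pou3f2* shares were 11.8% (8.11 to 16.4) and 24.8% (21.6 to 28.2) in endothelial-marked cells, and 6.94% (2.29 to 15.5) and 26.9% (21.8 to 32.5) in mural-marked cells. Both classes lay below the glutamatergic-marked share in the control but not in the KO. Cajal-Retzius-marked cells had still lower *Pou3f2* shares of 0.66% and 3.83%, but *Reln*, their marker, lies mostly in bin 1, and the part of stray transcripts in the glutamatergic-marked shares was not tested. *Eomes*-positive cells of the KO (55.9%, 53.1 to 58.7) and progenitor-marked cells of the KO (42.3%, 40.5 to 44.1) were above the microglia-marked interval for *Pou3f2*, and progenitor-marked cells of the control (26.0%, 23.5 to 28.5) overlapped it. The progenitor-marked shares pool cells of the whole pallium, and those in the sector were placed differently in the 2 sections, as given above. Pallial cells marked by a subcortical glutamatergic list with *Slc17a6* were also above that interval in the KO (51.9%, 48.2 to 55.5, 750 cells). Those of the control overlapped it (34.1%, 20.1 to 50.6, 41 cells).

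Within single thinned cells of the pallium, *Cux2*, *Pou3f1* and *Pou3f2* were detected together more often than the product of their shares, and *Rorb* was detected with them less often or about as often. *Pou3f1* and *Pou3f2* shared 2.85% of control cells and 4.12% of KO cells, 1.79 and 1.47 times the product of their shares. *Cux2* and *Pou3f2* shared 7.25% and 10.8%, 1.49 and 1.34 times the product. *Cux2* and *Rorb* shared 0.93% and 0.56%, 0.89 and 0.65 times the product, and *Pou3f2* with *Rorb* gave 0.96 and 0.73 times. These ratios describe the whole pallium, where genes of the same depth meet in the same cells and in their neighbours.

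Other regulators divided accordingly. *Fezf2*, the regulator of corticospinal neurons, was present in 17.8% of *Cux2*-positive control cells against 31.9% of the others and in 12.8% against 31.4% in the KO. For *Rorb*-positive cells it went the other way, with 50.6% against 28.1% in the control and 46.6% against 26.8% in the KO. *Lhx6*, the interneuron regulator of the MGE, was found in 11.9% of *Cux2*-positive control cells against 4.36% of the others, and in 11.2% against 4.05% in the KO.

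The genes whose profile was most like that of each member were found by Spearman correlation over the 10 depth bins, ranked by the lower of the values in both sections among 134 genes with enough transcripts. Depth bins of a section share its depth and composition, so the correlations are descriptive. For *Cux2* they were *Slc17a6* (rho 0.95 and 0.98), a vesicular glutamate transporter gene, followed by the cell cycle gene *Top2a* and the glial regulator gene *Sox9*. For *Rorb* they were *Cpne4* (0.94 and 0.88), *Col15a1* and *Nefm*, and for *Pou3f2* *Tagln3* (0.90 and 0.98), *Epha3* and *Igfbpl1*. *Pou3f1* had *Afap1* (0.94 and 0.84), *Tagln3* and *Kctd4*. Over 18 regions and cell classes (477 genes) the nearest were *Unc5d* for *Cux2* (0.88 and 0.87), *Nnat* for *Pou3f1* (0.79 in both), *Epha3* for *Pou3f2* (0.79 and 0.85) and *Egln3* for *Rorb* (0.64 and 0.69). *Unc5d* is itself 1 of the markers of glutamatergic-marked cells.

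Between genotypes, *Rorb* was lower in the KO pallium than in the control, and the other 3 members differed by less than 1.5-fold. The log2 ratio of KO over control in the pallium was -0.60 (-0.71 to -0.50) for *Rorb*, 0.26 (0.21 to 0.32) for *Cux2*, 0.16 (0.05 to 0.26) for *Pou3f1* and 0.30 (0.27 to 0.34) for *Pou3f2*. With a minimum of 50 transcripts per cell the 4 ratios were -0.31, 0.68, 0.52 and 1.56, so that *Cux2* and *Pou3f2*, and no longer *Rorb*, passed 1.5-fold, as 49.6% of 250 genes did under that minimum. Differences of that size were common in these sections. Of the 250 panel genes whose mean level over both sections reached the panel median, which included all 4 members, 34.4% differed by at least 1.5-fold in the pallium, which *Rorb* did as 1 of the 4 members. A ratio below that of *Rorb* was found in 16.0% of those genes.

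Over the 4 pairings of a KO side with a control side, the pallial log2 ratio of *Rorb* ranged from -0.78 to -0.39, and that of *Cux2* from 0.10 to 0.63. For *Pou3f1* the pairings spanned -0.0026 to 0.46. The outer band gave the same direction for *Rorb*, since in bins 2 and 3 the control sides lay at 9672 to 11923 CPM and the KO sides at 6088 to 7440 CPM. How many panel genes have sides that separate in these bins was not counted, so the separation is a description only. Within single arcs of bins 1 to 3 the sides did overlap. In the third arc side 1 of the control had 7137 CPM, below 9137 and 9204 CPM on the KO sides, and in the first arc side 2 of the control had 4249 CPM against 4803 and 4204 CPM. In glutamatergic-marked cells the log2 ratio of *Rorb* was -0.48 (-0.61 to -0.35), and in unassigned cells it was -0.85 (-1.05 to -0.65). In the same glutamatergic-marked cells the ratio was -0.01 (-0.11 to 0.09) for *Cux2*, -0.05 (-0.12 to 0.03) for *Pou3f2* and -0.23 (-0.41 to -0.05) for *Pou3f1*. *Cux2* in MGE interneuron-marked cells differed by 0.22 (0.03 to 0.40). Other classes differed more. In progenitor-marked cells the ratio was -0.42 (-0.71 to -0.12) for *Cux2* and 0.82 (0.70 to 0.94) for *Pou3f2*. In microglia-marked cells these ratios were 0.75 (0.11 to 1.45) and 1.17 (0.69 to 1.67), and in endothelial-marked cells 0.99 (0.49 to 1.52) and 1.07 (0.70 to 1.46). The part of cell placement and of stray transcripts in the class ratios was not tested. Sides of 1 animal are not replicates, and the pallial value of *Pou3f2* turned negative with all cells kept (-0.070), with all decoded molecules (-0.0044) and in the lowest imaging plane (-0.082).

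In the striatum the log2 ratios were 0.18 (0.04 to 0.32) for *Cux2*, 0.50 (0.34 to 0.66) for *Pou3f1*, 0.08 (-0.03 to 0.19) for *Pou3f2* and -0.41 (-0.76 to -0.04) for *Rorb*. None of the 4 members passed 1.5-fold there, as 32.8% of the 250 genes did. With a minimum of 50 transcripts *Pou3f1* did pass, at 0.99, as 42% of genes did. The striatal cells did not lie at the same places in the 2 sections, since 29.7% of those of the KO and 12.4% of those of the control were under 200 µm from the germinal zone, where *Pou3f1* is high. In a comparison chosen after seeing the data, the ratio of *Pou3f1* was 0.17 (-0.12 to 0.46) under 200 µm and 0.26 (0.07 to 0.46) at 200 µm or more. By class it was 0.75 (0.45 to 1.07) in all direct pathway-marked cells but 0.55 (-0.25 to 1.45) and 0.51 (0.18 to 0.85) at the shorter and longer distance, and 1.10 (0.60 to 1.64) in all indirect pathway-marked cells but 0.30 (-0.59 to 1.31) and 0.82 (0.20 to 1.495). In GABAergic-marked cells 1.32 (0.66 to 2.03) became 0.92 (-0.37 to 2.52) and 0.73 (-0.069 to 1.60). *Cux2* in indirect pathway-marked cells gave 1.01 (0.51 to 1.54) in all, 0.11 (-1.02 to 1.47) under 200 µm and 1.09 (0.53 to 1.69) beyond. The part that the place of the cells has in these ratios was not tested further, nor that of *Sp9* as a marker of the indirect pathway class. In the subpallial germinal zone 49.2% of the genes passed, and of the members only *Pou3f1* did, with 0.73 (0.52 to 0.94). The KO level of *Pou3f1* in the last 100 µm of the germinal zone was also the higher one, as given above. In the remaining subpallium 30.8% of genes and none of the members passed, and *Rorb* came nearest with -0.56 (-0.77 to -0.36).

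Other laminar genes differed in both directions in the pallium. Of the 17 on the panel, 15 reached the panel median in the pallium, where 5 were at least 1.5-fold higher and 1 was lower in the KO, with a median log2 ratio of -0.0093 against -0.04 over all 250 genes. The highest was *Unc5d* with 1.54, and *Eomes* had 1.42. The lower one was *Slc17a7*, a vesicular glutamate transporter gene of maturing cortical neurons, with -0.75 (-0.82 to -0.68). *Slc17a7* and *Eomes* were among the genes that delimited the pallium. Of all 250 genes 15.6% were that much higher and 18.8% lower. In the striatum 4 of 12 listed genes were higher and 1 was lower, in the subpallial germinal zone 8 of 14 were higher and none was lower, and in the remaining subpallium 5 of 12 were higher and none was lower. The shares of all 250 genes that were higher were 16.4%, 20.8% and 17.2%, and the shares that were lower 16.4%, 28.4% and 13.6%. Some of the higher genes reached the panel median only through their KO level. These were *Etv1* and *Unc5d* in the striatum, *Etv1* and *Foxp2* in the germinal zone and *Foxp2* in the remaining subpallium, so the counts of these 3 regions support no direction for the list.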

How the data were processed

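MERFISH of the Vizgen Pan Neuro panel had been run on 1 control and 1 KO section. The deposited tables hold raw counts of decoded transcripts per segmented cell for 500 genes and 50 blank barcodes, and the authors' lists of all decoded molecules. Decoding and segmentation settings are not given in the sources used here. No cell ID occurred in both sections (0 of 218537).

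Regions were set from 25 µm squares (Gaussian smoothing, SD 50 µm) by the summed counts of pallial, subpallial, striatal, germinal and connective tissue genes, none of them a member. The subpallial germinal zone was the brain outside pallium and striatum with at least 5% germinal gene counts, and no subpallial gene was required. It held *Fezf2* at 839 CPM in the control and 611 CPM in the KO, against 48 and 73 CPM in the striatum. Whether it includes pallial ventricular wall was not tested. These thresholds, the sector and the depth bins were chosen with both sections in view. Cells of at least 20 transcripts were summed to CPM of panel transcripts, with exact Poisson or Clopper-Pearson 95% intervals. A ratio's interval divides the low end of 1 interval by the high end of the other, and the reverse. A class needed at least 3 transcripts of its list, at 3 or more times the list's share in the whole section. Ratios were set beside those of the 250 panel genes whose mean level reached the panel median in the region.

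The members, lists and comparisons were chosen with earlier results of these data known. Named were the members, the listed laminar genes, the 3 most similar genes and genes that check a region or class. Scripts used pandas 2.3.3, scipy 1.17.1, numpy 2.4.6, matplotlib 3.10.9 and Python 3.11.15. The ratios and their intervals were tested on simulated counts, and the thinning on cells of the KO section. Some genes of these lists are not reported here.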

Additional observations from a re-analysis of the deposited data

How the results depend on the processing

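Of 143 values recomputed under alternatives, 93 stayed within the 95% counting interval of the reported value, 47 moved outside it and 3 reversed. A change of sign was counted as a reversal only where the interval of the reported value did not include 0. Striatal *Pou3f2* (0.08, -0.03 to 0.19) was negative under 4 of 8 alternatives and is counted among those that stayed or moved. The reversals were the pallial KO over control log2 ratio of *Pou3f2* without a minimum of transcripts (-0.070), with all decoded molecules (-0.0044) and in imaging plane 0 (-0.082). *Rorb* remained negative in the pallium (-0.73 to -0.31) and striatum (-0.50 to -0.30) under all 8 alternatives.

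Without a minimum the pallial ratios of *Cux2* and *Pou3f1* were 0.11 and 0.017, the striatal ratios of *Cux2*, *Pou3f1* and *Pou3f2* were 0.024, 0.28 and -0.082, and the control log2 ratio of depth bins 2 to 3 over 7 to 10 of *Pou3f2* was -1.50. With a minimum of 50 transcripts the pallial ratios were 0.68 for *Cux2*, 0.52 for *Pou3f1*, 1.56 for *Pou3f2* and -0.31 for *Rorb*, the striatal ratios 0.45, 0.99 and 0.45 for the first 3, the control depth ratios -0.89 for *Cux2*, -0.64 for *Pou3f2* and 3.03 for *Rorb*, and the control ratios of interneuron-marked over glutamatergic-marked cells 1.69 for *Cux2* and -0.31 for *Pou3f2*. With all decoded molecules the pallial ratios were 0.12 for *Cux2* and 0.048 for *Pou3f1*, the striatal ratios 0.015 for *Cux2*, 0.32 for *Pou3f1* and -0.059 for *Pou3f2*, and the control depth ratio of *Pou3f2* was -1.52. In plane 0 the pallial ratios were 0.11 for *Cux2* and -0.39 for *Rorb*, and the striatal ratios 0.018 for *Cux2*, 0.33 for *Pou3f1* and -0.11 for *Pou3f2*. Scaling to the median ratio of panel genes gave 0.35 for pallial *Pou3f2*. Thinning the KO section gave pallial ratios of 0.15 for *Pou3f2* and -0.73 for *Rorb*, a KO depth ratio of -0.72 for *Pou3f1*, and KO class ratios of 1.84 for *Cux2*, 0.28 for *Pou3f1* and -0.45 for *Pou3f2*. The causes of these shifts were not tested.

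Chosen after seeing the data, the whole pallium in place of the sector gave depth ratios of -0.42 and -0.85 for *Cux2*, 0.59 and -0.32 for *Pou3f1*, -0.60 and -1.38 for *Pou3f2*, and 2.94 and 2.89 for *Rorb* in the control and KO. The dorsal over lateral log2 ratio of *Pou3f2* in bins 7 to 10, also added later, was 3.40 without a minimum and 4.72 with a minimum of 50 in the control, and 3.21 in the thinned KO.

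The control median of 17 transcripts per pallial cell limits all per-cell statements. No paired analysis was possible because each group held 1 section. For the same reason no section was left out.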
